A study of Arabidopsis thaliana with 6 samples.

Results

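The 86 genes described here are cytoskeleton and motor protein genes among the genes to which a ChIP-seq study of CND1 in Arabidopsis thaliana assigned peaks. A nuclear gene counted as a member when it was assigned a peak in any of the 4 peak lists and when the protein match that the authors printed for it contained Kinesin, Tubulin, Actin-, Myosin, Formin-like, Villin or microtubule. These were 86 of the 12573 nuclear genes in the lists, or 0.684%. Seedling chromatin had been fixed with 1% formaldehyde for 10 minutes, sonicated and immunoprecipitated with a FLAG antibody. The tagged plants, of genotype pCND1-Flag/cnd1-3, carried FLAG-tagged CND1 in the cnd1-3 background, and the control plants were untagged Col-0. Each genotype had 2 ChIP libraries, each with its own peak list, and 1 input library, 6 samples in all. The series title places CND1 in the upkeep of the nuclear and the chloroplast genome. The labels give neither the promoter that drove the tag, nor the number of lines, nor whether replicate libraries stem from plants raised apart, and seedlings mix all cell types. Col-0 has no FLAG tag, so a peak in a Col-0 list marks enrichment that arose without tagged CND1.

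Microtubules are hollow filaments built from dimers of alpha- and beta-tubulin, nucleated by gamma-tubulin complexes and travelled by kinesins. Actin filaments are nucleated and elongated by formins, bundled by villins, shortened by actin-depolymerizing factors and travelled by myosins. In plant cells these filaments guide the deposition of the cell wall, set the plane of division and carry organelles. Tubulins and actins are encoded by families of closely similar genes.

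The match behind each membership was a best hit to a protein database, and 74 of the 86 genes had a hit with an E-value of 1e-50 or less. Of the 12 weaker hits, ACT2 is a genuine actin by its symbol, whereas AT1G18470, AT1G73950 and AT5G33300 are kinesins by the match alone. The best hit of 3 members was a protein of another species, among them AT1G77550, matched to a mouse tubulin ligase-like protein. Another 2 members, AT1G07603 and AT1G08727, are annotated in the reference gene table as long non-coding RNA loci, and their peaks lay over alpha-tubulin genes. Not every member works in the cytoskeleton: AT5G05130 was matched to a chromatin remodelling protein whose name holds the word actin-dependent, and ARP5 and ARP6 are actin-related subunits of nuclear chromatin remodelling complexes.

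Peaks were assigned to 68 of the 86 members in CND1-FLAG replicate 1 (79.1%, against 78.0% of all nuclear genes of the lists) and to 55 in CND1-FLAG replicate 2 (64.0%, against 66.1%). Col-0 replicate 1 had 36 members with a peak (41.9%, against 41.3%) and Col-0 replicate 2 had 35 (40.7%, against 39.0%). Both tagged lists therefore held more members than either Col-0 list. The mean was 61.5 ± 9.19 members for CND1-FLAG and 35.5 ± 0.707 for Col-0 (SD, n = 2 each). Their ratio was 1.73, and 1.79 over all genes. No test was made, since 2 against 2 libraries allow no two-sided exact permutation p below 0.333. The lists differed in length in the same way, 12933 and 10414 nuclear peaks for CND1-FLAG against 6152 and 5722 for Col-0. Cut to the 5722 peaks of highest −log10 q in each list, the ratio for the members was 0.928. Lists of equal length hold such a ratio near 1 for genes at large by construction, so no conclusion is drawn from this value. Depth, as estimated, also differed, with 84.6 and 76.0 ChIP fragments per kb for the tagged libraries and 158.4 and 154.9 for Col-0. The estimate is the lowest background recovered in a list, divided by its smallest peak width and by the scaling given below. It takes that background as the level of the genome and that width as the fragment length, and neither was checked. The part of list length and depth in these counts was not tested further.

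Overlapping peaks were joined to regions. Those with a peak of each tagged library were divided by the untagged ones: tagged-specific regions had none from Col-0, and shared regions had a peak of 1 or both Col-0 libraries. Tagged-specific regions were assigned to 22 of the 86 members (25.6%, 95% Wilson interval 17.5 to 35.7, counting error only), beside 29.3% of all nuclear genes of the lists. Shared regions were assigned to 25 members (29.1%, 20.5 to 39.4), beside 30.0%. These counts include 4 members with both kinds of region (4.65%, beside 3.91%), namely ACT7, the kinesins ARK2 and AT5G33300, and the formin AT1G59910. In both cases the background share lay within the interval. Of the 22 members, 11 stayed tagged-specific with a −log10 q of at least 5, 7 with a fold of at least 2 and 9 with equal list lengths. In all 3 settings 6 did so, namely ACT7, ARP5, AT5G27950, ARK2, AT1G59910 and Fh5. With members newly called included, these settings gave 17, 13 and 9 members. Over all genes they gave 2566, 2047 and 1531, against 3690 in the main setting. Of the members with neither kind of region, 20 had tagged peaks that did not form a region of both tagged lists. Another 15 had tagged and Col-0 peaks without such a region, and 8 had Col-0 peaks alone (9.30%, beside 11.2%). Peaks of both tagged lists were found at 45 members (52.3%, beside 55.3%), at 19 of them with no Col-0 peak assigned to the gene (22.1%, beside 23.5%). Tagged peaks alone were found at 38 members (44.2%, beside 46.8%). In all, 25 members were in 1 list, 31 in 2 lists, 13 in 3 lists and 17 in all 4 lists (19.8%, beside 19.8%). Counts printed here without a share have no value over all genes beside them, so nothing is read from them.

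**Figure D1:**
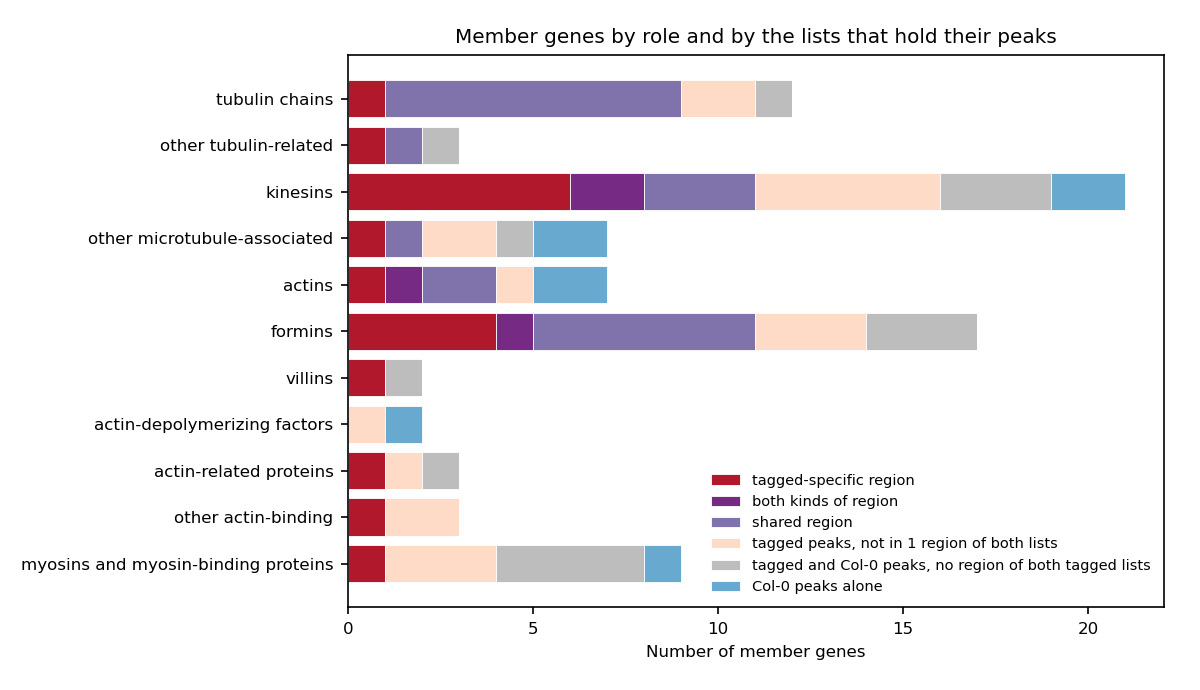
Number of member genes of each role (x axis) by the lists that hold their peaks, with each bar split into 6 states that add up to the 86 members. The 12 members matched to tubulin chains, 2 of them lncRNA loci, are mostly in the state with a shared region (8 of 12). A tagged-specific region is found for 8 of the 21 kinesins, 2 of them beside a shared one.

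The strength of the peaks was measured as fold enrichment, the authors' ratio of the fragment pile-up at a summit to its local background. Over the member peaks its median was 1.93 in each tagged list, and 1.66 and 1.67 in Col-0 replicates 1 and 2. Over all nuclear peaks the medians were 1.92, 1.91, 1.66 and 1.66 in the same order. The strongest member summit in any tagged list reached 3.36, where the lists as a whole reached 10.3 and 10.6. A fold of at least 2 in both tagged lists was reached by 16 members (18.6%, beside 20.4% of all nuclear genes of the lists), and a fold of at least 2 in a Col-0 list by 6 (6.98%, beside 7.58%). The member summits rested on 41 to 192 fragments for CND1-FLAG and on 87 to 258 for Col-0. By their medians, cytoskeleton genes thus held peaks of ordinary strength for these lists. The members were a small part of each list, so nothing is read from their lower maximum. By fold, the AT1G59910 region ranked 290 in CND1-FLAG replicate 1 and that of AT5G07650 ranked 383 in replicate 2. The TUA6 region ranked 185 and 87 in Col-0 replicates 1 and 2.

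**Figure D2:**
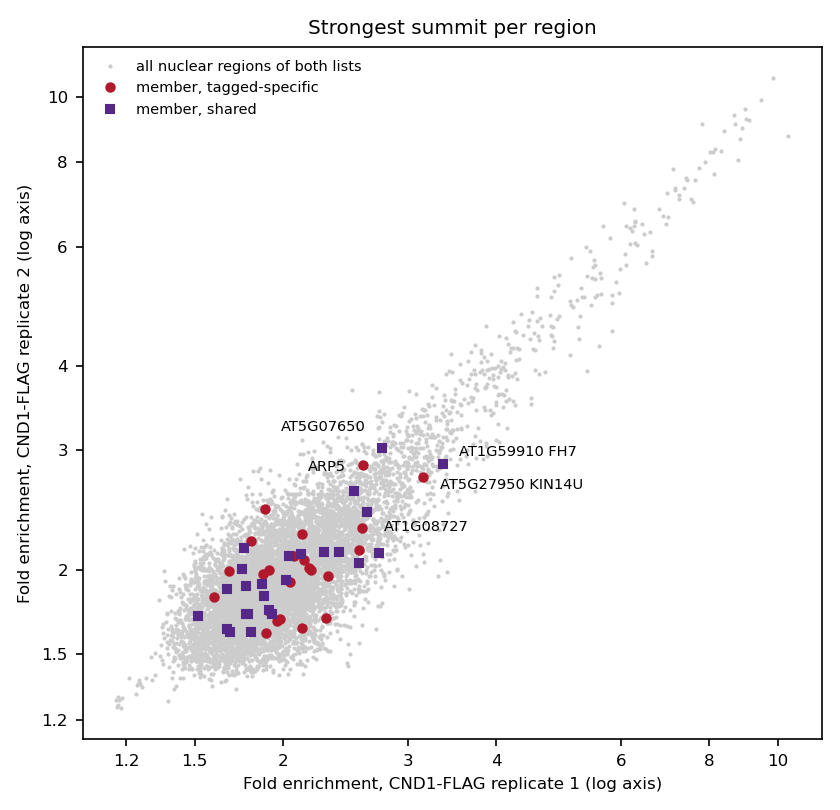
Fold enrichment of the strongest summit of each region in CND1-FLAG replicate 1 (x) and replicate 2 (y), both on log axes, for all nuclear regions called in both tagged lists (grey) and for the 48 member regions (coloured by class). All member regions lie below a fold of 3.4 on both axes, far from the strongest regions, which exceed a fold of 10.

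Tubulin chains, the subunits of the microtubule itself, were the match of 12 members, among them the lncRNA loci AT1G07603 and AT1G08727. A shared region was assigned to 8 of the 12 (66.7%, beside 30.0% of all nuclear genes of the lists), both lncRNA loci included. Protein-coding tubulin genes held 6 of the shared regions. A tagged-specific region was assigned to 1, TUB2 (8.33%, beside 29.3%). All 8 with a shared region had an assigned peak in each of the 4 lists (66.7%, beside 19.8%). Close copies among them may share reads, as given below, so they are not independent. At TUA6, an alpha-tubulin, the region chr4:8548717-8550346 (TAIR10, as are all coordinates here) had a fold of 2.02 and 1.93 in CND1-FLAG replicates 1 and 2 and of 2.49 and 3.00 in Col-0 replicates 1 and 2. At TUA4, chr1:1356337-1357850, the folds were 1.88 and 1.83 in the tagged lists against 2.31 and 2.43 in the Col-0 lists. In both alpha-tubulin genes the untagged libraries had the higher folds, without overlap of the fold values between the genotypes. Their counting intervals, explained below for TUB7, did overlap at TUA4 (1.44 to 2.28 in CND1-FLAG replicate 2, 2.04 to 2.62 in Col-0 replicate 1). At TUA6 the interval of Col-0 replicate 1, 2.18 to 2.84, overlapped that of CND1-FLAG replicate 1, 1.65 to 2.45. The interval of Col-0 replicate 2 there, 2.64 to 3.41, lay above both tagged intervals. Of the 16 member regions found in all 4 lists, 2, at TUA4 and TUA6, had both Col-0 folds above both tagged folds (12.5%, beside 6.60% of all 2426 such regions). Another 8 had both tagged folds above both Col-0 folds (50%, beside 67.8%).

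TUB7, a beta-tubulin, had folds of 2.12 and 2.11 in the tagged lists against 1.98 and 2.0 in the Col-0 lists at chr2:12644332-12645290. The tagged values were higher by less than their counting intervals, 1.70 to 2.60 and 1.68 to 2.61, which are exact Poisson intervals on the fragments with the background taken as fixed. TUB8 had 1.67 and 1.87 in the tagged lists against 1.74 and 1.69 in Col-0, and the genotypes overlapped. TUB4 had a region of 1.77 and 1.72 in the tagged lists against 1.51 in Col-0 replicate 2, and a second region called in Col-0 alone, with 1.74 and 1.79. At TUA5 the region chr5:6688168-6688904 had 1.79 and 1.72 against 1.57 and 1.52 in Col-0, although the peak of CND1-FLAG replicate 2 there was assigned to AT5G19790. TUB2 was the exception in the group: its region chr5:25181463-25181954, called with folds of 2.19 and 2.0 on 106 and 93 fragments in the tagged lists, met no Col-0 peak. A Col-0 peak of 1.49 did lie further along TUB2, in replicate 1, and was assigned to the neighbouring TUB3.

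At 3 further tubulin chains no region of both tagged lists was found. TUB1 had a peak of 1.98 in CND1-FLAG replicate 1 alone and TUA3 a peak of 1.45 in CND1-FLAG replicate 2 alone. TUB3, a close copy of TUB2 beside it, had a peak of 1.59 in CND1-FLAG replicate 2 over the gene itself, apart from the Col-0 peak over TUB2 just named. Both lncRNA loci did have regions of both tagged lists. AT1G07603 owed its place to the region chr1:18518138-18519825, which overlaps the alpha-tubulin gene TUA2 (AT1G50010) and had 2.29 and 2.13 in the tagged lists against 2.28 and 2.21 in Col-0. Its genotypes overlapped. The lncRNA locus AT1G08727 stood for the region chr1:24051581-24052374, which overlaps TUA1 (AT1G64740) and AT1G64750 and had 2.63 and 2.43 in the tagged lists against 1.51 and 1.42 in Col-0. Here both tagged libraries lay above both Col-0 libraries. The authors assigned no peak to TUA1 or TUA2 themselves, so 4 of the 6 alpha-tubulin genes and 6 of the 9 beta-tubulin genes of Arabidopsis had an assigned peak, and neither of the 2 gamma-tubulin genes did. Over all 27444 nuclear protein-coding genes of the reference gene table the share with a peak in any list was 41.5%. Tubulin genes of a family resemble each other closely, TUA3 and TUA5 or TUB2 and TUB3 above all, and the treatment of reads that align to more than 1 copy is not given in the sources used here, so the gene to which such a peak belongs is uncertain.

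The shared regions of protein-coding tubulin genes also had their strongest tagged summits in the same part of the gene. In all 6 shared regions of protein-coding tubulin genes (TUA4, TUA5, TUA6, TUB4, TUB7 and TUB8) the strongest tagged summit lay past the midpoint, at 58.0% to 82.4% of the gene length and 1128 to 1771 bp from the start. Over all shared regions 23.6% had the summit in the second part of the gene, past its midpoint and before its end. The TUB2 summit lay 369 bp into the gene. Peaks near the start were also called in some of the genes with a shared region. They lay at 348 bp in TUB7 (CND1-FLAG replicate 1 and Col-0 replicate 2), at 344 bp in TUA5 (CND1-FLAG replicate 2) and at 364 bp in TUB4 (both Col-0 lists). This grouping was made after the positions were seen and carries no test.

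Other genes tied to tubulin were few. SPC98, the gamma-tubulin complex component 3 that takes part in microtubule nucleation, had a shared region with 1.80 and 1.62 in the tagged lists against 1.43 in Col-0 replicate 1. GCP4, another component, had a peak of 1.60 in CND1-FLAG replicate 1 and of 1.5 in Col-0 replicate 2. AT1G77550 had a tagged-specific region with 1.96 and 1.68, which also overlaps AT1G77560. None of these reached a fold of 2.

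Kinesins, the motors that move along microtubules, made the largest role with 21 members, 8 of them with a tagged-specific region (38.1%, beside 29.3% of all nuclear genes of the lists) and 5 with a shared one (23.8%, beside 30.0%). Peaks were assigned to 18 kinesins in CND1-FLAG replicate 1 (85.7%, beside 78.0%) and to 12 in replicate 2 (57.1%, beside 66.1%). In Col-0 replicates 1 and 2 they were assigned to 4 (19.0%, beside 41.3%) and 7 (33.3%, beside 39.0%), and 2 kinesins had a peak in all 4 lists (9.52%, beside 19.8%). By the worse of both tagged ranks, the first tagged-specific region of all members belonged to AT5G27950, matched to the kinesin KIN-14U. In CND1-FLAG replicate 2 that of ARP5 was higher, with 2.86. The AT5G27950 region spanned chr5:9983713-9984160, with its summit 115 bp upstream of the gene start. The fold was 3.16 in CND1-FLAG replicate 1 (137 fragments, 2.65 to 3.73) and 2.74 in replicate 2 (107 fragments, 2.25 to 3.31), and no Col-0 peak was called there. By fold it ranked 621 or better in each tagged list, among 12718 and 10217 nuclear regions.

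ARK2, a kinesin with armadillo repeats, had a pair of neighbouring regions. The region chr1:329284-330387 near the end of the gene had 2.74 and 2.11 in the tagged lists against 1.54 in Col-0 replicate 2. The region chr1:330827-331505, with 2.14 and 2.06 and no Col-0 peak, lay past the end of the gene and over the neighbouring AT1G01960. Both tagged libraries lay above the Col-0 library in the first region, and the second has no Col-0 value to compare.

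TES, a kinesin needed for cytokinesis after male meiosis, had a tagged-specific region at chr3:15195179-15195841, in exon 14 of 16, with 2.32 and 1.95. KINESIN-13A, of a kinesin family known for taking microtubules apart, had 1.98 and 1.69, with the summit 753 bp into the gene. AT4G39050, matched to KIN-7D, had 1.87 and 1.97, with the summit 513 bp into the gene. These regions were called in both tagged lists without a Col-0 peak, and their counting intervals overlapped one another.

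AT5G33300, whose match to the kinesin KIN-4C is weak, had a tagged-specific region with 2.13 and 2.26 and a shared one with 1.52 and 1.71 in the tagged lists against 1.77 in Col-0 replicate 2. Their summits lay 5234 and 6324 bp upstream of its start, over other annotated loci, AT5G33303 and AT5G33306. ATK4, of the KIN-14 family, and FRA1, a kinesin that affects cell wall deposition in fibres, had tagged-specific regions with 1.68 and 1.99, and with 1.60 and 1.82. The FRA1 summit lay 2989 bp upstream of that gene, over AT5G47815, so the assignment rests on the nearest start.

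Among the shared kinesin regions, that of AT3G63480 was high in both tagged lists, with 2.52 and 2.62 at chr3:23443544-23444952 against 1.60 in Col-0 replicate 1. AT3G63480 was matched to KIN-1, and the Col-0 peak of the region was assigned to its neighbour AT3G63490, over which the region extends. KLCR1, a protein related to kinesin light chains, had nearly equal folds in all 4 lists, 1.87 and 1.91 in the tagged and 1.89 and 1.89 in the Col-0 lists. AT3G44050, matched to KIN-12E, had 1.93 and 1.72 against 1.78 and 1.63, in a region 4722 bp upstream of its start. The genotypes overlapped at both KLCR1 and AT3G44050.

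The kinesins without a region of both tagged lists were 10. Of these, 5 had tagged peaks alone, with folds between 1.58 at ZWI, a calmodulin-binding kinesin of trichomes, and 2.1 at AT1G73950. Another 3, AT2G21300, MRH2 and KAC2, had a peak in 1 tagged and 1 Col-0 list each. AT1G18470 and AT3G51150 had a peak in Col-0 replicate 2 alone.

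Other microtubule-associated proteins gave 1 tagged-specific and 1 shared region among 7 members (14.3% each, beside 29.3% and 30.0% of all nuclear genes of the lists). MAP70-1, of a plant family that binds along microtubules, had 1.91 and 2.0 in a tagged-specific region with its summit 436 bp into the gene. MAP70-5 had 1.91 and 1.74 against 1.47 in Col-0 replicate 2. MAP70-2 showed the opposite pattern, with peaks of 1.48 and 1.51 in both Col-0 lists and none in the tagged lists. Peaks in both Col-0 lists and neither tagged list were found for 2 members, MAP70-2 and ACT3 (2.33%, beside 3.13% of all nuclear genes of the lists). TOR1, which straightens growing organs, and the bundling proteins ATMAP65-6 and MAP65-8 had a peak in 1 list each. AT4G15830, matched to a mouse protein, had 1.94 in CND1-FLAG replicate 2 and 1.78 in Col-0 replicate 2.

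**Figure D3:**
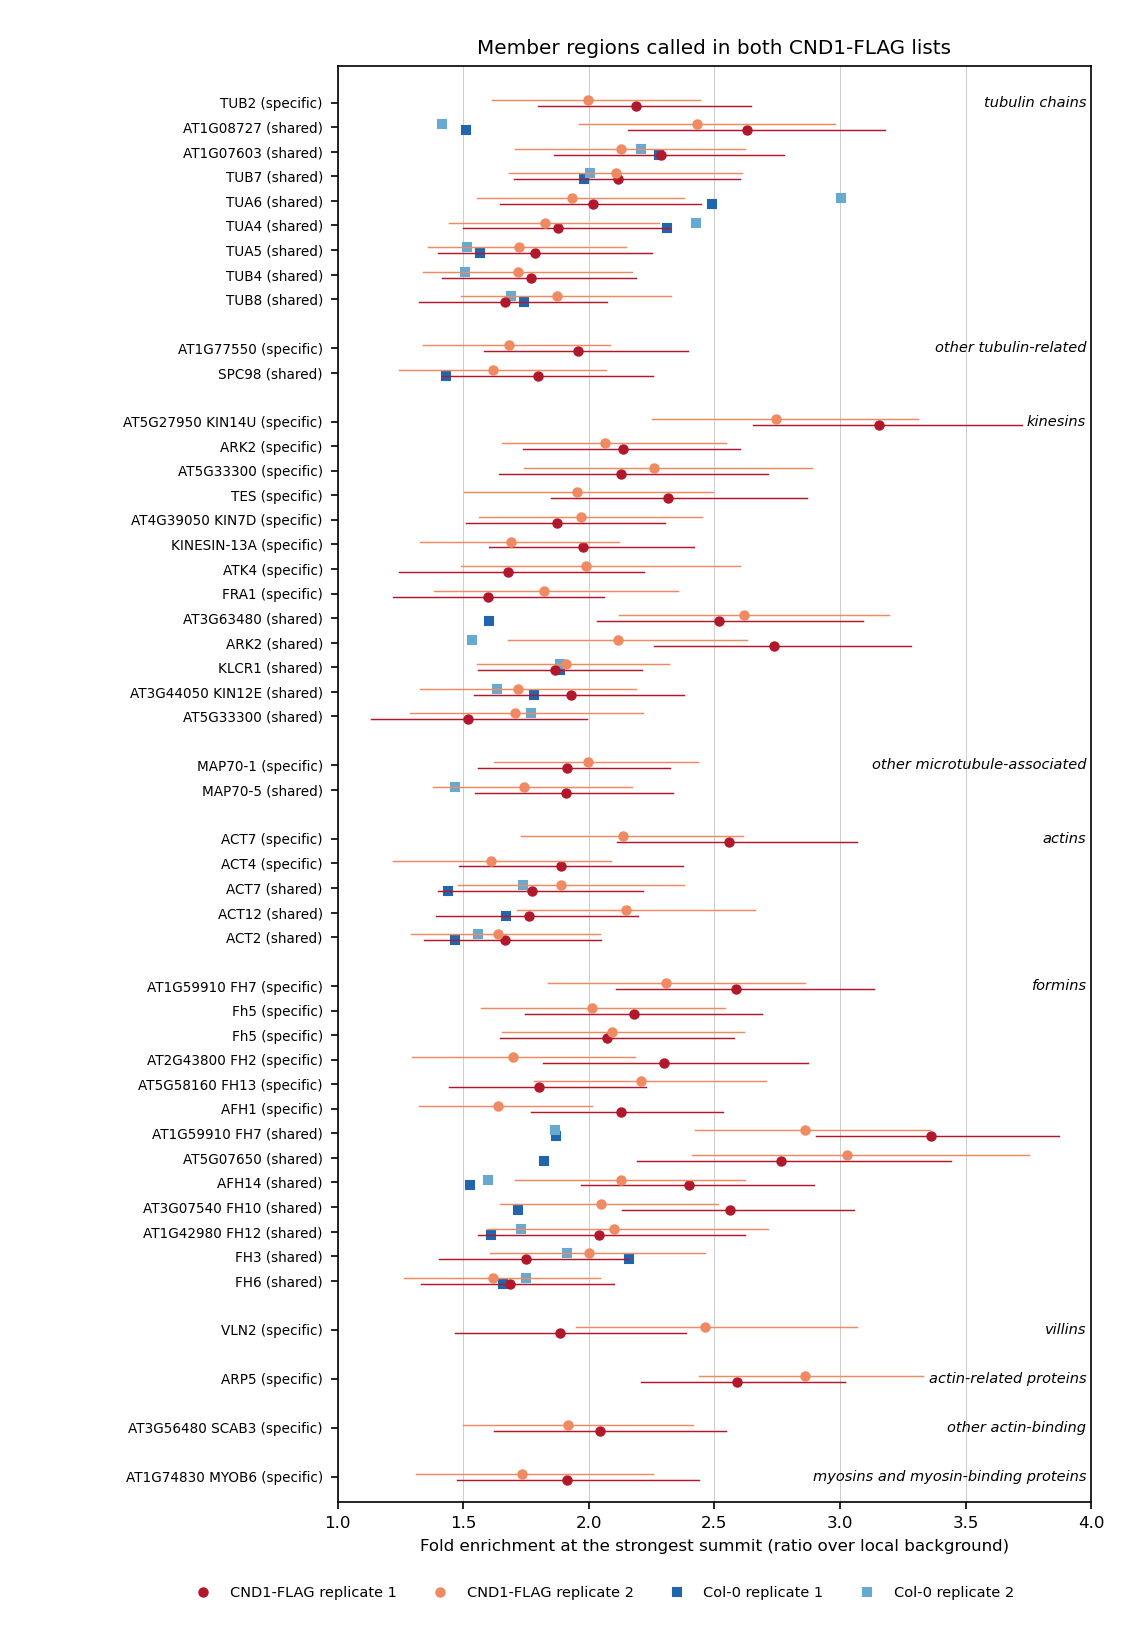
Fold enrichment at the strongest summit (x axis, ratio over local background) of the 48 member regions called in both CND1-FLAG lists, by role, with circles for the tagged and squares for the Col-0 libraries. Lines are 95% exact Poisson intervals of the tagged values from the fragment counts. The Col-0 squares lie to the right of the tagged circles at TUA4 and TUA6, and rows marked specific have no square since no Col-0 peak was called there.

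Actins, the subunits of the other filament, gave 7 members, of which 2 had a tagged-specific region (28.6%, beside 29.3% of all nuclear genes of the lists) and 3 a shared one (42.9%, beside 30.0%). ACT7, a main actin of vegetative tissues, had a tagged-specific region over its start, chr5:3051705-3052124, with 2.56 in CND1-FLAG replicate 1 (113 fragments, 2.11 to 3.07) and 2.14 in replicate 2 (93 fragments, 1.73 to 2.61). Its summit lay 138 bp upstream of the start. A second ACT7 region, chr5:3052867-3054113, was shared, with 1.77 and 1.89 in the tagged lists against 1.44 and 1.74 in the Col-0 lists. The start of ACT7 had peaks in the tagged libraries alone, and the body of the gene in all 4.

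ACT4, an actin of reproductive tissues, had a tagged-specific region at chr5:23950125-23950545 with 1.89 and 1.61, which became shared when a Col-0 peak within 500 bp was counted. ACT2, the other main vegetative actin, had a region of all 4 lists, chr3:6475463-6476655, with 1.67 and 1.64 in the tagged lists against 1.47 and 1.56 in Col-0. ACT12 had 1.76 and 2.15 against 1.67 in Col-0 replicate 1. In both shared regions the tagged values were the higher ones. At ACT2, and at ACT12 in CND1-FLAG replicate 1, the Col-0 values lay within the tagged counting intervals. For ACT12 in CND1-FLAG replicate 2 the interval, 1.72 to 2.66, lay above the Col-0 value of 1.67. It still overlapped the Col-0 interval of 1.40 to 1.99. ACT3 had Col-0 peaks alone, with 1.39 and 1.52, and so did ACT8, with 1.45 in Col-0 replicate 2. The putative actin AT2G42100 had a peak of 1.44 in CND1-FLAG replicate 1. Among 8 actin genes looked up by symbol in the reference gene table, AT2G37620 (ACT1) and AT3G12110 (ACT11) had no assigned peak. The authors' lists name AT3G53750, here ACT3 after that table, as ACT1. Actin genes too are close copies, and the same doubt about read placement applies.

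Formins, which nucleate and elongate actin filaments, gave 17 members with 6 tagged-specific and 7 shared regions, 13 in all, as many as the kinesins. A tagged-specific region was assigned to 5 formins (29.4%, beside 29.3% of all nuclear genes of the lists) and a shared one to 7 (41.2%, beside 30.0%). AT1G59910, matched to formin-like protein 7, held the member region that was highest in CND1-FLAG replicate 1 and first by the worse of both tagged ranks. At chr1:22054733-22057105 its folds were 3.36 in CND1-FLAG replicate 1 (192 fragments, 2.91 to 3.87), 2.86 in replicate 2 (149 fragments, 2.42 to 3.36), and 1.87 and 1.86 in Col-0. A tagged-specific region further into the gene, chr1:22054106-22054485, had 2.58 and 2.31, although the peak of CND1-FLAG replicate 2 there was assigned to AT1G59900. This region too became shared when a Col-0 peak within 500 bp was counted. Both tagged libraries lay well above both Col-0 libraries at the shared region, which Col-0 libraries nevertheless carried with a −log10 q of 9.03 and 8.58.

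AT5G07650, a putative formin-like protein 15b, had a narrow shared region at chr5:2421514-2421930, 143 bp into the gene, with 2.76 and 3.03 against 1.82 in Col-0 replicate 1. Its 3.03 was the highest member fold in CND1-FLAG replicate 2. AFH14, a formin that binds both microtubules and actin filaments, had 2.40 and 2.13 in the tagged lists against 1.53 and 1.60 in Col-0. AT3G07540, matched to formin-like protein 10, had 2.56 and 2.05 against 1.72 in Col-0 replicate 1. Tagged values lay above the called Col-0 values at these 3 formins, and at AT1G42980 (2.04 and 2.1 against 1.61 and 1.73). This order was found in 67.8% of all 2426 regions of all 4 lists. Counting intervals overlapped at AT3G07540, at AFH14 (1.71 to 2.62 in CND1-FLAG replicate 2, 1.33 to 1.92 in Col-0 replicate 2) and at AT1G42980. They did not at AT5G07650, which like AT3G07540 had 1 Col-0 value alone. Tagged and Col-0 values overlapped at FH3 (1.75 and 2.0 against 2.16 and 1.92) and at FH6 (1.68 and 1.62 against 1.66 and 1.75).

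Tagged-specific regions of formins were found at Fh5, a formin of the growing cell plate, with 2.18 and 2.01 in a region with its summit 2340 bp into the gene and 2.07 and 2.09 in another at 1512 bp. AT5G58160, matched to formin-like protein 13, had 1.80 and 2.21. AT2G43800, matched to formin-like protein 2, had 2.30 and 1.70. AFH1, a membrane-anchored formin, had 2.13 and 1.64 in its tagged-specific region, and a Col-0 peak of 1.61 elsewhere. Replicates differed by more at AT2G43800 and AFH1 than at Fh5. The other 6 formins had no region of both tagged lists. AT3G05470, AT3G32420 and AT5G07760 had tagged peaks alone, with folds from 1.55 to 2.01, and AT3G32400, AT5G07740 and FH19 had both tagged and Col-0 peaks. The summits assigned to AT3G32420 lay 18384 and 20811 bp upstream of its start. Those assigned to AT3G32400 lay 8533 to 16253 bp from its start, past the end of the gene. None of these peaks overlapped the gene it was assigned to.

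Villins bundle actin filaments, and VLN2 had a tagged-specific region with 1.89 and 2.46, its summit 1067 bp upstream of the gene and over AT2G41745. VLN4 had a peak of 2.09 in CND1-FLAG replicate 1 and of 1.58 in Col-0 replicate 1. These were 2 of the 5 villin genes, and 2 of the 11 genes of actin-depolymerizing factors had a peak (beside 41.5% of nuclear protein-coding genes), ADF9 in CND1-FLAG replicate 1 (2.1) and ADF11 in Col-0 replicate 2 (1.58). AT3G56480, matched to a stomatal closure-related actin-binding protein, had a tagged-specific region with 2.05 and 1.92, its summit 101 bp upstream of the start. The capping protein subunit CPA had a single peak of 1.65 in CND1-FLAG replicate 2, and AT5G05130 one of 2.30 in CND1-FLAG replicate 1.

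Actin-related proteins resemble actin in sequence but serve in other complexes. ARP5, a subunit of the INO80 chromatin remodelling complex, had a tagged-specific region at chr3:3941712-3942279 with 2.59 in CND1-FLAG replicate 1 (161 fragments, 2.21 to 3.02) and 2.86 in replicate 2 (162 fragments, 2.44 to 3.33). The summit lay 86 bp upstream of ARP5, and the region also overlaps AT3G12385 and AT3G12390, so it is not tied to ARP5 alone. ARP6, a subunit of the SWR1 complex, had 10 peaks over the lists, 7 of them in CND1-FLAG replicate 1 and none in replicate 2, and 7 were annotated as distal intergenic. DIS2, a subunit of the Arp2/3 complex that branches actin filaments, had a peak of 1.56 in CND1-FLAG replicate 1 alone.

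Myosins and myosin-binding proteins, which carry organelles along actin, gave 9 members, of which 1 had a tagged-specific region (11.1%, beside 29.3% of all nuclear genes of the lists) and none a shared one (beside 30.0%). The region belonged to AT1G74830, matched to myosin-binding protein 6, with 1.91 and 1.74 and its summit 1138 bp into the gene. The myosin MYA2 had a peak of 2.18 in CND1-FLAG replicate 1, with 1.62 and 1.5 in the Col-0 lists. XIH had 1.53 in CND1-FLAG replicate 1 with 1.5 and 1.60 in Col-0, and XIC had 2.06 in CND1-FLAG replicate 2 alone. The remaining 5 were AT1G70750, AT2G30690, AT4G13630, AT1G42680 and AT1G08800, and none had a region of both tagged lists.

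Position within the gene was a further feature that the choice of members had not used. Of the 48 member regions called in both tagged lists, 27 were annotated within 1 kb of a gene start (56.2%, 95% Wilson interval 42.3 to 69.3), beside 69.7% of all 8049 such nuclear regions. Counted per peak, it was 48.4% in CND1-FLAG replicate 1 (beside 63.8% of all nuclear peaks) and 66.7% in replicate 2 (beside 65.9%). In Col-0 replicates 1 and 2 it was 52.5% and 47.6% (beside 59.5% and 60.2%). The lower share of the members was thus not seen in CND1-FLAG replicate 2. The authors' promoter label reaches 3 kb to either side of a start, so it covers much of a short gene. The share was 60.9% for tagged-specific member regions, beside 71.4%, and 52% for shared ones, beside 68.1%. Summits past the midpoint of the gene, those past its end included, were found in 11 of 25 shared member regions (44%, beside 34.2% of all shared regions) and in 5 of 23 tagged-specific ones (21.7%, beside 27.0%). None of the 25 shared member summits lay past the end, beside 10.5% of all shared ones. Tubulin chains, with the lncRNA locus AT1G08727 among them, supplied 7 of those 11. Upstream of the start lay 7 of 23 tagged-specific summits (30.4%, beside 22.8%) and 3 of 25 shared ones (12%, beside 22.1%). These genes are also long, with a median of 3445 bp against 1858 bp for all genes of the lists, 5235 bp for kinesins and 3655 bp for formins, which leaves more gene beyond 1 kb. The part of gene length in the positions was not tested.

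**Figure D4:**
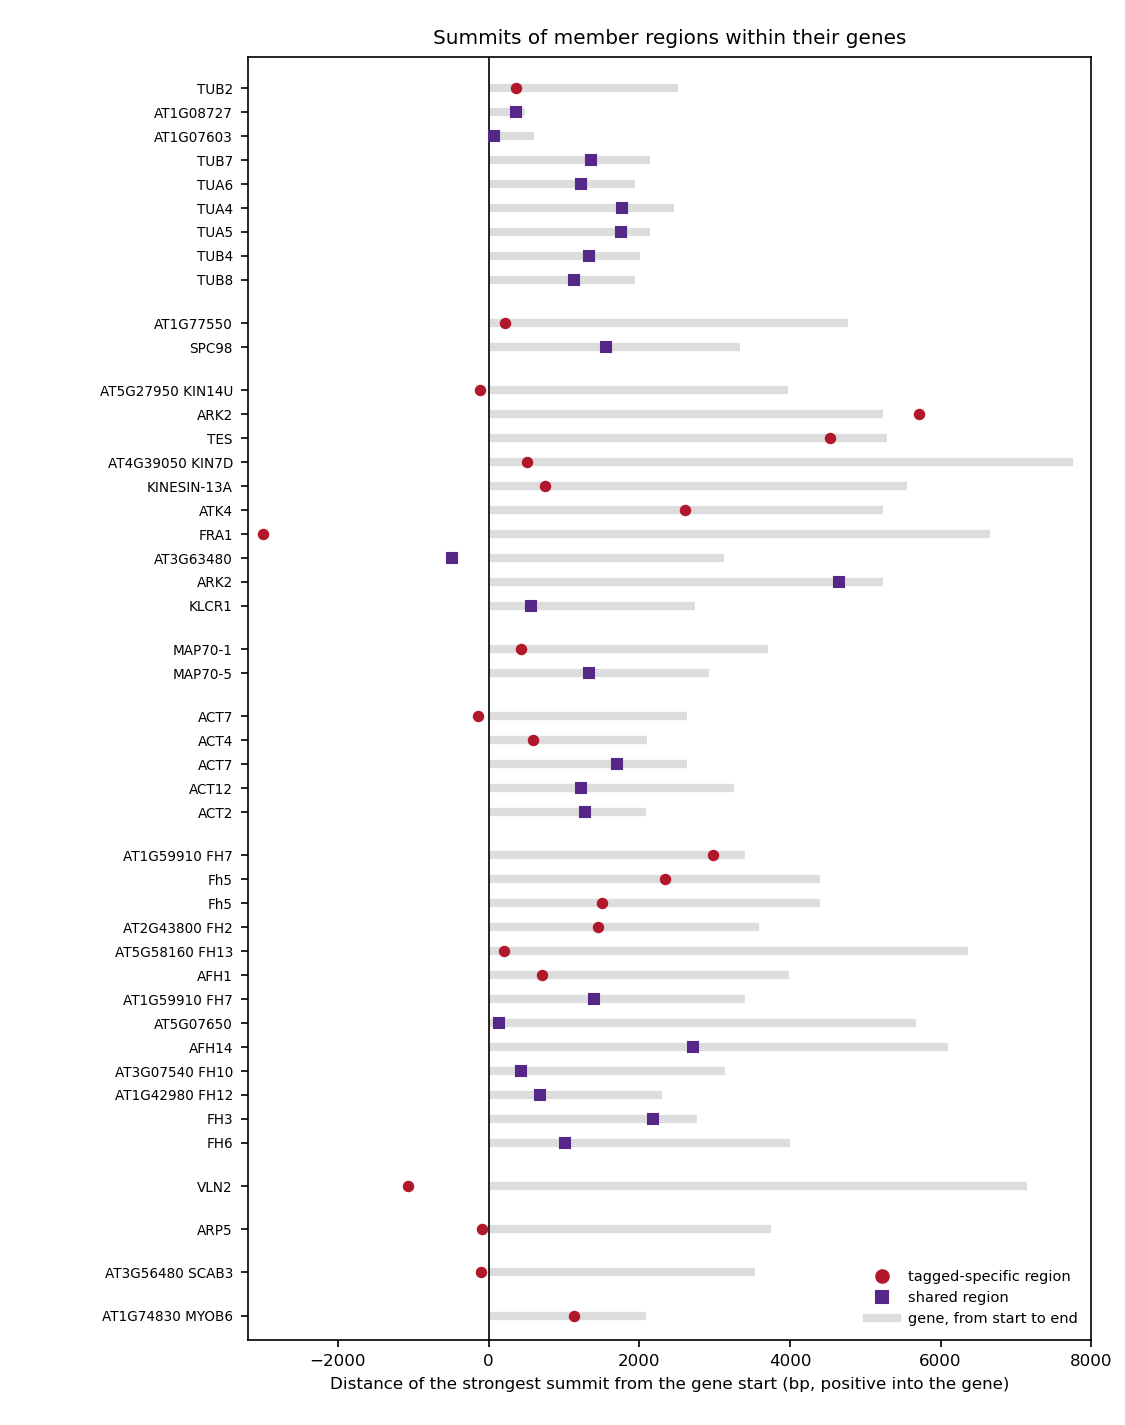
Distance in bp of the strongest tagged summit from the start of the member gene (x axis, positive into the gene) for 45 of the 48 member regions, with grey bars for the gene from start to end. The other 3 regions, of AT3G44050 and AT5G33300, lie further upstream than the plot reaches. Squares of shared regions of protein-coding tubulin genes sit past the midpoint of their genes. The circles of ACT7, ARP5, AT5G27950 and AT3G56480 sit just upstream of the start.

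Assignment to the nearest gene was not always overlap. Of the 126 regions assigned to members, 91 overlapped the member gene and 35 did not, and of the 48 called in both tagged lists 42 overlapped it. In 11 of these 48 another gene lay under the region too or instead. Distal intergenic peaks made up 28 of the 240 member peaks (11.7%, beside 11.1% of all nuclear peaks), and they belonged to 6 members.

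Further cytoskeleton genes that the words of the rule miss were looked up by symbol, and 34 loci that are no members were found in the reference gene table. Of these 13 had a peak in some list, beside 41.5% of nuclear protein-coding genes. In CND1-FLAG replicates 1 and 2 they were 11 and 5, beside 32.4% and 27.4% of such genes, and in Col-0 replicates 1 and 2 they were 7 and 3, beside 17.3% and 16.3%. A tagged-specific region was assigned to 3 of the 34, beside 12.1% of such genes, and a shared one to 1, beside 12.5%. For the 3, the strongest folds in CND1-FLAG replicates 1 and 2 were 2.0 and 2.30 at MOR1, a microtubule polymerase, 1.89 and 1.89 at SCAR1, an activator of the Arp2/3 complex, and 2.04 and 1.88 at NEDD1, which recruits gamma-tubulin complexes and also had a peak of 1.64 in Col-0 replicate 1. The shared region was that of the fimbrin gene AT5G35700, with 1.92 and 1.67 against 1.77 in Col-0 replicate 1. None of the 5 profilin genes, which feed actin monomers to formins, had a region of both tagged lists, although 3 had a peak in CND1-FLAG replicate 1.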

How the data were processed

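Anti-FLAG ChIP libraries of pCND1-Flag/cnd1-3 and Col-0 seedlings were compared, 2 of each, grouped by the genotype in the labels. Per the submitters' processing notes the tools were fastp 0.19.11, BWA 0.7.12 and MACS2 2.1.0, with the genome build TAIR10. The authors deposited 1 annotated peak list per ChIP library, so peaks were called per library. Per the file headers, each line gives a fold enrichment (a ratio over local background), p and q as −log10 values, an integer score, positions and distances in base pairs, the assigned gene and its best protein match. Not given in the sources used here are the input behind each list, the read totals and the handling of multiply aligned reads. The smallest deposited −log10 q was 1.3 in each list.

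Summits of a single called interval were treated as 1 peak, represented by the strongest, and peaks of the 4 lists sharing at least 1 bp were merged to regions. A region took the genes of its tagged peaks. Gene names, biotypes and overlaps with annotated genes came from a RefSeq gene table of TAIR10.1, in which all 86 members were found by identifier. Members, lists and roles were chosen with earlier results of these data known. Fragments at summits were worked out from fold and p, as MACS2 adds 1 to pile-up and to background before dividing them and reads p off a Poisson distribution. The pile-ups were whole numbers within 0.05 at 100% of summits, after scaling Col-0 by 0.723 and 0.739, and the step was tested on simulated data. Intervals and Wilson bounds cover counting error only, and duplicate fragments are not independent molecules. With 2 libraries per genotype nothing was tested, and shares are given beside those of all 12573 nuclear genes.

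Named were every tubulin chain and actin, in each role up to 6 members with a tagged-specific and up to 4 with a shared region by rank, members with 2 or more regions of both tagged lists, and up to 6 with both Col-0 lists alone. Ranks were by fold, the worse of both tagged lists. Other named genes were chosen after their values were seen. Alternatives were a minimum −log10 q of 5, a minimum fold of 2, equal list lengths, reciprocal overlap of 50%, Col-0 peaks within 500 bp, peaks within 1 kb of a start, a stricter reading of the matches, and leaving out each library. The planned search of promoter motifs was not run, as no sequence was used here. Python 3.11.15, pandas 2.3.3, numpy 2.4.6, SciPy 1.17.1 and matplotlib 3.10.9 were used.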

Additional observations from a re-analysis of the deposited data

How the results depend on the processing

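No paired analysis was possible because no result comes from a test and the replicate numbers of the genotypes mark no shared material. The ratio of members with a peak, tagged to Col-0, of 1.73 was 3.95 with −log10 q of at least 5 and 6.22 with a fold of at least 2. It was 1.98 with peaks within 1 kb of a start and 0.928 with lists of 5722 peaks each, a setting that holds it near 1 by construction. No ratio over all genes is given for these settings. Among all nuclear peaks a fold of at least 2 was reached by 41.4% and 39.4% in CND1-FLAG replicates 1 and 2. In Col-0 replicates 1 and 2 it was reached by 12.2% and 12.6%. The 22 members with a tagged-specific region were 13 with a fold of at least 2 and 9 with equal list lengths, and 24 to 46 with 1 library left out. The highest of these, 46, came without CND1-FLAG replicate 2. The 25 members with a shared region were 5 with −log10 q of at least 5, 2 with a fold of at least 2, 11 with equal lengths and 12 within 1 kb of a start, and 20 to 34 with 1 library left out. All-gene counts moved likewise, tagged-specific genes from 3690 to 1531 with equal lengths. ACT7, ARP5 and AT5G27950 were tagged-specific in the main and 6 other settings. The median tagged fold of 1.93 was 2.11, 2.16, 2.14, 1.94 and 1.96 with the q, fold, equal-length, 1 kb and stricter-match settings. Of these, the q, fold and equal-length settings remove weak peaks. The share within 1 kb, 56.2%, was 100% where only such peaks entered. With 2 libraries per genotype and 41 to 192 fragments behind a tagged member summit, differences in fold of the size seen between replicates cannot be told from counting error. Absence from a Col-0 list says that no peak was called, not that no enrichment was there.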
